A study of Danio rerio with 12 samples.

Results

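The genes described here make or modify the lipids of cell membranes. They are the desaturases scd, scdb and fads2, the elongases elovl2, elovl4a, elovl5 and elovl6, and the sterol synthesis enzymes hmgcra, hmgcs1 and sqlea, 10 genes in all. They were chosen as membrane lipid genes that animals adjust to temperature, and a probe was counted as theirs where its transcript carried the current symbol. Of 43603 probes on the array, 15 belonged to 9 of these genes, and no probe was matched to sqlea. A probe is called detected on an array where the scanner software marked it as well above its background. Of the 16128 transcripts that were tested, 8 were of this group, because neither probe of scd was detected on any array.

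Desaturases place double bonds in fatty acids, elongases lengthen them by adding carbons to the acyl chain, and the sterol enzymes build cholesterol from acetyl groups. Double bonds loosen the packing of a membrane and cholesterol tightens it. In ectotherms the composition of membranes is known to follow body temperature, and in carp liver cooling is known to raise desaturase expression. The brain is rich in cholesterol and in long polyunsaturated fatty acids, and makes much of its own cholesterol.

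RNA from whole brains of adult zebrafish was measured on 12 single-colour arrays, 3 for each of 4 groups, with each array carrying a pool of 3 fish by the labels. PIC_G fish had been injected in the body cavity with poly(I:C), a synthetic double-stranded RNA (dsRNA) that mimics a viral infection, and could move along a thermal gradient. PIC_sG fish had been injected with the same dsRNA and had no gradient. PBS fish had been injected with saline and had a gradient, and Control fish were not injected. The labels give a dose of 1 mg per kg, where the methods give a much lower one, and a time of 24, without a unit, after the injection. They place Control fish in the gradient, where the methods place them outside it, so that PBS and Control differ in the injection and, by the methods, also in access to the gradient. No group had saline without a gradient. PIC_sG and Control therefore differ in the injection as well as in the dsRNA and, by the labels, also in the gradient. The contrast called here the dsRNA effect in the gradient against that without is PIC_G over PBS minus PIC_sG over Control. Its second part has no injection control. Fish in the gradient chose their own temperature, so that no group with a gradient had a fixed one.

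The files did not settle which dsRNA arrays had the gradient. The scanner output and the tables for single samples carried the same labels, and these were followed. In the table for the whole series, the 3 columns headed PIC_sG held the values of the arrays labelled PIC_G, and the other way round. Every comparison that sets PIC_G apart from PIC_sG therefore depends on which label is right. The comparison of PBS with Control and the mean over both dsRNA groups do not. Each of the 3 slides held 1 array per group, the replicate number was the slide, and a group kept its position from slide to slide, so that group and position cannot be told apart. Each array is a separate pool by the labels, and p values measure the spread between these pools, which may in part be technical.

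An array detected between 6330 and 21900 features. PIC_sG replicate 3 was the dimmest, with the lowest number and a 75th percentile of the signal of 34.6 against 99.1 to 541 on the other arrays. Levels are given as the log2 signal minus the 75th percentile of the array over the 5272 probes detected everywhere, so that 0 is that percentile and a difference of 1 is 2-fold. The lowest level that still counted as detected was -3.22 on PIC_sG replicate 3 and lay between -6.94 and -4.52 on the other arrays. Markers of neurons, radial glia and oligodendrocytes were detected, with 10, 6 and 7 of the listed genes on the array and none of these undetected throughout. Of 5 liver markers with a probe, 4 were detected on both PIC_sG replicate 1 and Control replicate 2, and all 4 were higher on these arrays than on any of the other 10. The fifth, apoa1b, was detected on no array. The summed level of the 2 liver markers that were tested, fabp10a and ambp, on a linear scale with the percentile at 1, was 7.69 on PIC_sG replicate 1 and 2.57 on Control replicate 2, against 0.0304 to 0.205 on the other arrays. Every comparison was also run without these 2 arrays, and some of the values that moved are given beside the genes. In pools of whole brain, fewer cells of a type and less RNA per cell cannot be told apart.

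Detection set the limits for this group of genes. Of their 15 probes, 11 were kept for being detected on 3 arrays or more, and 3 were detected on every array, namely 1 of elovl5 and both of elovl6. By array, 8, 8 and 7 of the 8 tested genes were detected in PIC_G replicates 1 to 3, and 8, 5 and 2 in PIC_sG. PBS arrays detected 5, 6 and 5 of them, and Control arrays 7, 8 and 8. The dimmest array had the lowest count.

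**Figure D1:**
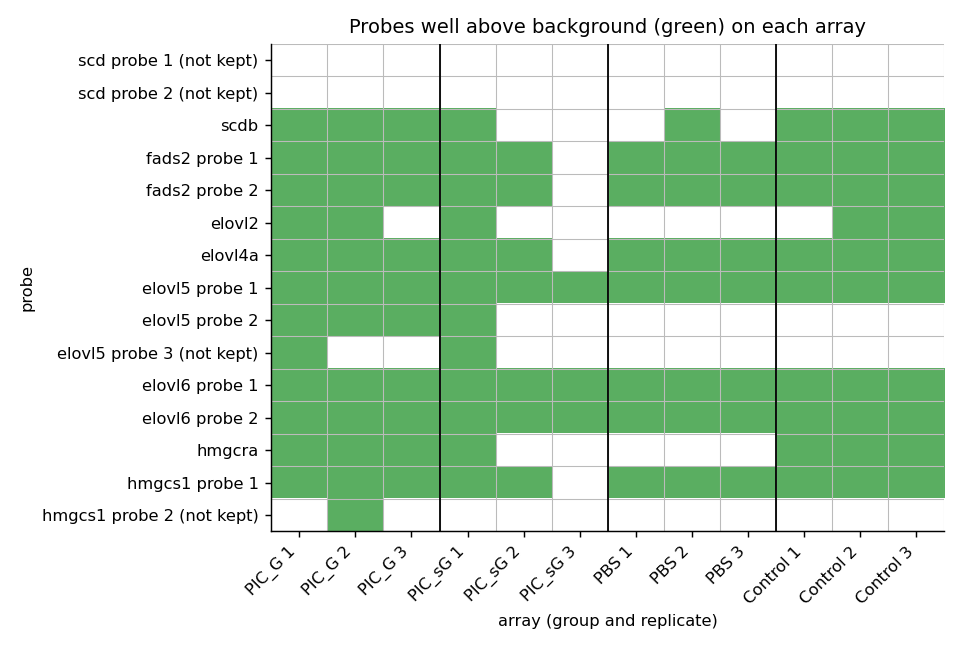
Detection of the 15 probes (rows) on the 12 arrays (columns, grouped as PIC_G, PIC_sG, PBS and Control), with green where the scanner software marked the probe as well above its background. Both scd probes are blank throughout, hmgcra is green on all PIC_G and Control arrays and on no PBS array, and PIC_sG replicate 3 has the fewest green cells.

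No gene of this group passed the test in any comparison, taken with limma and Benjamini-Hochberg adjustment over all 16128 transcripts at an adjusted p under 0.05. The count was 0 of 8 between PIC_G and PIC_sG (0.00% of all transcripts called), 0 of 8 between PBS and Control (4.30%), 0 of 8 between PIC_G and PBS (0.440%), and 0 of 8 between PIC_sG and Control (1.38%). It was also 0 of 8 for both dsRNA groups against the other 2 groups (1.62%), for any difference among the 4 groups (2.47%), and for the dsRNA effect in the gradient against that without (0.00%). At an unadjusted p under 0.05 the counts in the same order were 0, 2, 1, 0, 1, 1 and 0 of 8, where 4.40%, 22.5%, 14.9%, 16.0%, 16.4%, 21.0% and 14.9% of all transcripts passed, so that no share stood above the background by more than 1 gene. When arrays were weighted by their quality, elovl5 passed between PBS and Control, between PIC_G and PBS and for any difference, and no other gene of the 8 passed there. With these weights 3242, 2163 and 4426 of all 16128 transcripts passed in the same comparisons, so that such a call was common. The elovl5 level of these fits joins a probe that no PBS or Control array detected and that passed the filter through the dsRNA groups.

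The measured means lay to one side in the comparison of PBS with Control. All 8 tested genes had a lower measured mean in PBS, where 57.0% of all transcripts did, with a median log2 difference of -0.87 against -0.13 over all transcripts. Of these genes, elovl2 and hmgcra were detected on no PBS array and passed the filter through the other groups. The 6 genes detected on a PBS array were all lower, with a median of -0.77. With every undetected PBS value set at the detection limit of its array, or at its own signal where that was higher, 7 of 8 remained lower, all but elovl2, and the median was -0.69. The direction of elovl2 is therefore not known. In 4 of the 8, scdb, fads2, elovl4a and elovl5, every PBS array lay below every Control array, which held for 18.1% of all transcripts. Within slides, 7 of 8 measured values were lower in PBS on each of the 3 slides, against 34.7% of all transcripts, and 6 of 8 with undetected PBS values at the limit, where elovl2 and hmgcs1 were not. The measured median over the 8 genes was -0.60, -0.71 and -0.76 on slides 1 to 3, against -0.14, -0.26 and 0.006 over all transcripts. Control had the highest mean of the 4 groups for 6 of the 8 genes, and PBS the lowest measured mean for 5, among them elovl2 and hmgcra. With the slide as a block, 0 of 8 genes passed, while the count over all transcripts was 1316 in place of 694.

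**Figure D2:**
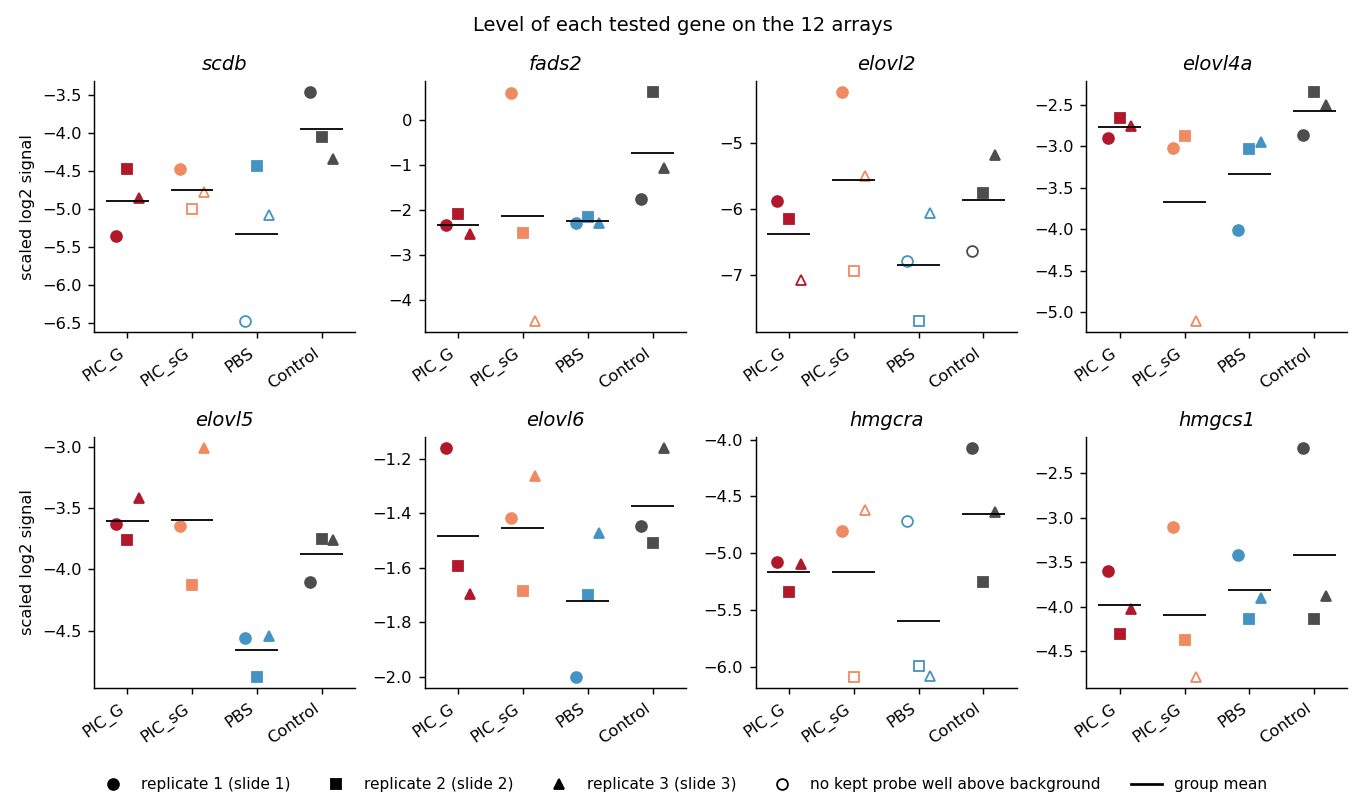
Scaled log2 signal (vertical axes) of the 8 tested genes on each array, by group (horizontal axes), with a symbol for each replicate, hollow where no kept probe was detected, and a line at the group mean. PBS values lie below all Control values for scdb, fads2, elovl4a and elovl5, and single arrays stand far from their group in fads2 (PIC_sG replicates 1 and 3, Control replicate 2) and elovl4a (PIC_sG replicate 3).

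Among the desaturases, scdb encodes a stearoyl-CoA desaturase, which makes monounsaturated fatty acids from saturated ones. Its single kept probe (A_15_P104758) stood at -5.35, -4.47 and -4.86 on the PIC_G arrays and at -4.48, -5.01 and -4.78 on the PIC_sG arrays. On PBS arrays it stood at -6.47, -4.44 and -5.08, and on Control arrays at -3.47, -4.06 and -4.34. The Control arrays had the highest 3 measured values of all 12. The probe was detected on all PIC_G and all Control arrays but on only 1 PIC_sG array and 1 PBS array, so that the values of those 2 groups are mostly at background. The mean was -5.33 ± 1.04 in PBS and -3.96 ± 0.44 in Control (SD, n = 3 each), a log2 difference of -1.37 (SE 0.48, limma adjusted p = 0.125). It was -0.84 with the undetected PBS values at the detection limit and -0.80 without PBS replicate 1, where the probe was not detected. On that slide the measured difference was -3.00 and that from the limit -1.40, against -0.38 and -0.74 on slides 2 and 3. With normexp, another background correction, the difference of the means was 0.17, with the sign turned. Measured PIC_sG values also lay below all Control values, by -0.80 (SE 0.48, limma adjusted p = 0.450), but the detection limit of PIC_sG replicate 3 (-3.22) is above them all. PIC_G was 0.43 above PBS (SE 0.48, limma adjusted p = 0.736) with overlapping groups. The sign of this last difference turned without PBS replicate 1 (-0.14) and with normexp (-0.62).

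The other stearoyl-CoA desaturase, scd, was not detected on any of the 12 arrays with either of its probes, and no level or difference is given for it.

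The front-end desaturase fads2 acts in the making of long polyunsaturated fatty acids from dietary precursors. It was detected on 11 arrays, and its 2 probes ran together. The first (A_15_P103127) stood at -1.96, -1.69 and -2.14 on PIC_G arrays, and at 0.78, -2.17 and -3.72 on PIC_sG arrays, the last not detected. It stood at -2.19, -1.78 and -1.94 on PBS arrays and at -1.38, 1.1 and -0.64 on Control arrays. PIC_sG replicate 1 and Control replicate 2 were the highest of all 12 arrays on both probes, and the second probe (A_15_P104437) had 0.40 and 0.10 there against -5.22 to -1.49 elsewhere.

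These were the 2 arrays on which the liver markers were high. fabp10a, a fatty acid binding protein of the liver, had 2.81 on PIC_sG replicate 1 and 1.15 on Control replicate 2, against -9.01 to -2.55 on the other arrays. apoa2, a plasma apolipoprotein, had 1.47 and -0.29 there and was detected on no other array. Of the 8 genes, only fads2 was higher on both of these arrays than on every other, as were 1.21% of all transcripts with a value on every array. The part of liver RNA in the fads2 values was not tested.

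**Figure D3:**
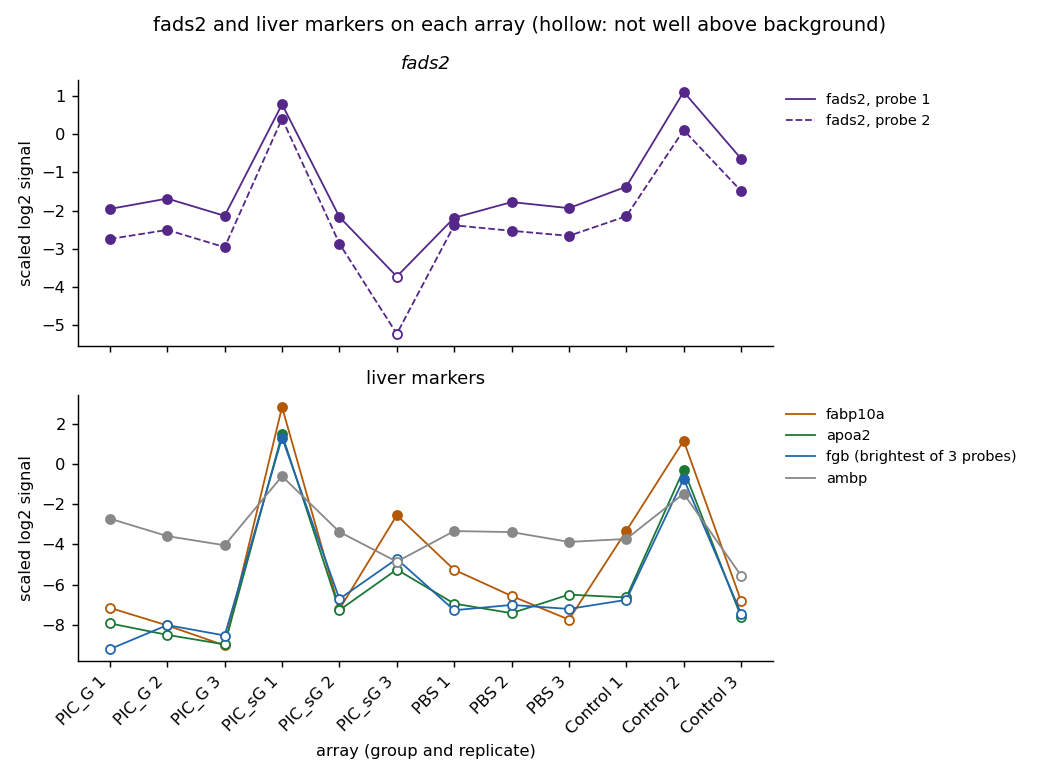
Scaled log2 signal (vertical axes) of the 2 fads2 probes (top) and of 4 liver markers (bottom) on the 12 arrays (horizontal axis), hollow where not detected. The highest points of every line are PIC_sG replicate 1 and Control replicate 2.

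As a mean over its probes, fads2 was at -2.33 ± 0.23 in PIC_G, -2.13 ± 2.55 in PIC_sG, -2.25 ± 0.08 in PBS and -0.74 ± 1.21 in Control (SD, n = 3 each). PBS was below Control by -1.51 (SE 1.01, limma adjusted p = 0.417), on all slides and with no overlap. Without Control replicate 2 the difference was -0.83, and the remaining Control arrays were still above all PBS arrays. Between PIC_sG and Control the difference was -1.39 (SE 1.01, limma adjusted p = 0.537) with overlap. It came to -2.08 without the 2 arrays high in liver markers and to -0.22 without the dim PIC_sG replicate 3. Between PIC_G and PIC_sG it was -0.20 with all arrays, 1.16 without PIC_sG replicate 1 and -1.37 without the dim PIC_sG replicate 3, so that its sign and size rested on single arrays. PIC_G and PBS were close, with a difference of -0.08 (95% confidence interval -2.31 to 2.14), a wide interval because the spread of all groups was pooled.

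Of the elongases, elovl5 extends polyunsaturated fatty acids of medium length. On a level that joins both of its kept probes, it had the smallest adjusted p of the 8 genes in 3 of the 7 comparisons. Its bright probe (A_15_P101561), detected on every array, stood at -1.60, -1.88 and -1.75 on PIC_G arrays and at -1.56, -1.95 and -0.84 on PIC_sG arrays. On PBS arrays it stood at -2.56, -2.72 and -2.19, and on Control arrays at -1.74, -1.67 and -1.33. The 3 PBS arrays were the lowest of the 12. A dim probe (A_15_P132341) was detected on 4 arrays, 3 of PIC_G and 1 of PIC_sG, and on no PBS or Control array, so that it passed the filter through the dsRNA groups and gives no order between PBS and Control. Its remaining probe was detected on 2 arrays and was left out.

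Over both kept probes, elovl5 had a mean of -3.60 ± 0.17 in PIC_G, -3.60 ± 0.56 in PIC_sG, -4.66 ± 0.19 in PBS and -3.87 ± 0.20 in Control (SD, n = 3 each). This level joins the dim probe, which passed the filter through the dsRNA groups and which no PBS or Control array detected. Differences, slide values and p values over both probes are therefore no fair test of these groups. PIC_G was 1.06 above PBS on the log2 scale (SE 0.31, limma adjusted p = 0.147), without overlap and on each slide (0.93, 1.12 and 1.12). The bright probe alone gave 0.75, also without overlap. PBS was below Control by -0.79 (SE 0.31, limma adjusted p = 0.162), again without overlap and on each slide (-0.46, -1.12 and -0.78), and the bright probe alone gave -0.91. In the fit restricted to probes detected on all arrays, where elovl5 is the bright probe, the adjusted p from limma was 0.214 between PIC_G and PBS and 0.0600 between PBS and Control. These comparisons share the PBS arrays. With array weights and both probes, the adjusted p from limma was 0.00809 between PIC_G and PBS and 0.0288 between PBS and Control. The same limit of the dim probe holds for these values. The values and labels of the series table gave 0.25 for PIC_G over PBS and 0.23 for PBS over Control, the second with the sign turned, and normexp gave 0.42 and -0.05. PIC_sG and Control differed by 0.28 (SE 0.31, limma adjusted p = 0.716), and PIC_G and PIC_sG by -0.01 (95% confidence interval -0.69 to 0.67). The bright probe alone gave 0.13 and -0.29 for these, and the dim probe 0.42 and 0.28, so that the probes were opposed between PIC_G and PIC_sG.

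For the mean over both dsRNA groups against the mean over PBS and Control, elovl5 was 0.67 higher over both probes (SE 0.22, limma adjusted p = 0.163) and 0.44 higher on the bright probe alone. An exact two-sided permutation test of 6 arrays against 6 on the bright probe gave p = 0.147, where the smallest p it allows is 0.00216. Over both kept probes of elovl5 the same permutation test gave p = 0.0238. That level joins the dim probe, which passed the filter through the dsRNA groups, so that this value is no fair test of them. The other 7 genes had exact permutation p values between 0.318 and 0.920 on their gene levels. Tests of 3 arrays against 3 cannot go below 0.1 by permutation, and none is given.

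elovl4a, an elongase of very long chain fatty acids, was detected on 11 arrays with its single probe (A_15_P114020). It stood at -2.90, -2.66 and -2.76 in PIC_G, and at -3.02, -2.88 and -5.10 in PIC_sG, where it was not detected on the dim replicate 3. It stood at -4.01, -3.03 and -2.95 in PBS and at -2.86, -2.35 and -2.51 in Control. Apart from PIC_sG replicate 3 and PBS replicate 1, all 10 arrays lay between -3.03 and -2.35. PBS was below Control by -0.76 (SE 0.53, limma adjusted p = 0.444) and PIC_G above PBS by 0.56 (SE 0.53, limma adjusted p = 0.690), in each case without overlap and on every slide. Without PBS replicate 1 these came to -0.42 and 0.21, and with normexp on all arrays to -0.25 and 0.10.

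PIC_sG was below Control in elovl4a by -1.1 (SE 0.53, limma adjusted p = 0.345), also without overlap, and PIC_G was above PIC_sG by 0.89 (SE 0.53, limma adjusted p = 0.987). Without PIC_sG replicate 3 these came to -0.38 and 0.18. The difference of PIC_G over PBS exceeded that of PIC_sG over Control, which also holds the injection, by 1.65 (SE 0.76, limma adjusted p = 0.339), and by 0.93 without that array. With the arrays of PIC_G and PIC_sG exchanged, as the series table has them, the same contrast was -0.14.

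elovl6 extends saturated and monounsaturated fatty acids, and it was the steadiest gene of the group. Both of its probes were detected on all arrays, and its gene level spanned 0.84 log2 units over the 12 arrays, against 1.87 to 5.07 for the other 7 genes. The brighter probe (A_15_P108810) stood at -0.38, -0.89 and -0.84 in PIC_G and at -0.70, -0.69 and -0.21 in PIC_sG. In PBS it stood at -1.03, -0.85 and -0.66, and in Control at -0.38, -0.68 and -0.31. The groups overlapped in all comparisons. Over both probes the log2 difference was -0.35 between PBS and Control (95% confidence interval -0.94 to 0.24), 0.24 between PIC_G and PBS (-0.35 to 0.83), -0.08 between PIC_sG and Control (-0.67 to 0.51) and -0.03 between PIC_G and PIC_sG (-0.62 to 0.56). A 2-fold change lay outside each of these intervals.

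elovl2, which works on the path to docosahexaenoic acid, was near background. It was detected on 2 PIC_G, 1 PIC_sG, no PBS and 2 Control arrays. Its values were -5.88, -6.15 and -7.08 in PIC_G, -4.24, -6.94 and -5.49 in PIC_sG, -6.79, -7.69 and -6.05 in PBS and -6.62, -5.75 and -5.19 in Control. The highest, PIC_sG replicate 1, was an array with high liver markers. The groups overlapped in all comparisons. The measured difference between PIC_G and PIC_sG was -0.81 and came to -0.15 without that array. Between PIC_sG and Control it was 0.30, and -0.31 without the 2 arrays high in liver markers, with the sign turned. The PBS level is only known to lie at background, and even its direction against Control is not known, so that its measured difference, drawn hollow in the plots, is no estimate.

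The sterol synthesis enzymes began with hmgcs1, the synthase that makes the substrate of the reductase. Its kept probe (A_15_P102310) was detected on all arrays but PIC_sG replicate 3. It stood at -3.60, -4.31 and -4.03 in PIC_G, at -3.11, -4.37 and -4.79 in PIC_sG, at -3.42, -4.14 and -3.90 in PBS, and at -2.22, -4.14 and -3.88 in Control. Control replicate 1 stood alone, and on the other 2 slides PBS and Control were nearly equal (0.005 and -0.02). The difference of PBS from Control was -0.40 (SE 0.55, limma adjusted p = 0.728). It was 0.20 without Control replicate 1 and -0.77 without Control replicate 2, an array with high liver markers. With normexp it was -0.01. Measured values were lower in PIC_sG than in Control on all 3 slides, though on slide 3 the detection limit of the PIC_sG array (-3.22) is above the Control value, with a mean difference of -0.68 (SE 0.55, limma adjusted p = 0.587) and overlapping groups. This was -1.53 without the 2 arrays high in liver markers and -0.08 without Control replicate 1. Between PIC_G and PIC_sG the difference was 0.11, and 0.60 without the 2 arrays high in liver markers.

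hmgcra encodes the reductase that limits the rate of the mevalonate pathway and is the target of statins. Its probe (A_15_P206911) stood at -5.07, -5.34 and -5.09 in PIC_G, at -4.81, -6.09 and -4.62 in PIC_sG, at -4.72, -6.00 and -6.08 in PBS, and at -4.07, -5.25 and -4.63 in Control. It was detected on all PIC_G and all Control arrays, on 1 PIC_sG array and on no PBS array. The measured log2 difference of PBS from Control was -0.95 (SE 0.49, limma adjusted p = 0.281), and hmgcra was lower in PBS on every slide. With normexp this difference was -0.10, and without the 2 arrays high in liver markers it was -1.25. PIC_G was 0.43 above PBS, and 0.02 with normexp. Between PIC_sG and Control the difference was -0.52, and -0.998 without the 2 arrays high in liver markers. Since PBS was at background, the differences from PBS were also taken with each PBS value at the detection limit of its array. That limit is the array's lowest detected signal, and the probe's own signal was used where higher. By this measure PBS was 1.55-fold lower than Control, and PIC_G 1.08-fold higher than PBS. Neither value is a strict bound, since undetected signals can lie above the limit, as on PBS replicate 1 (-4.72 against -4.87). With overlapping groups and uneven detection limits, neither difference passed the test.

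**Figure D4:**
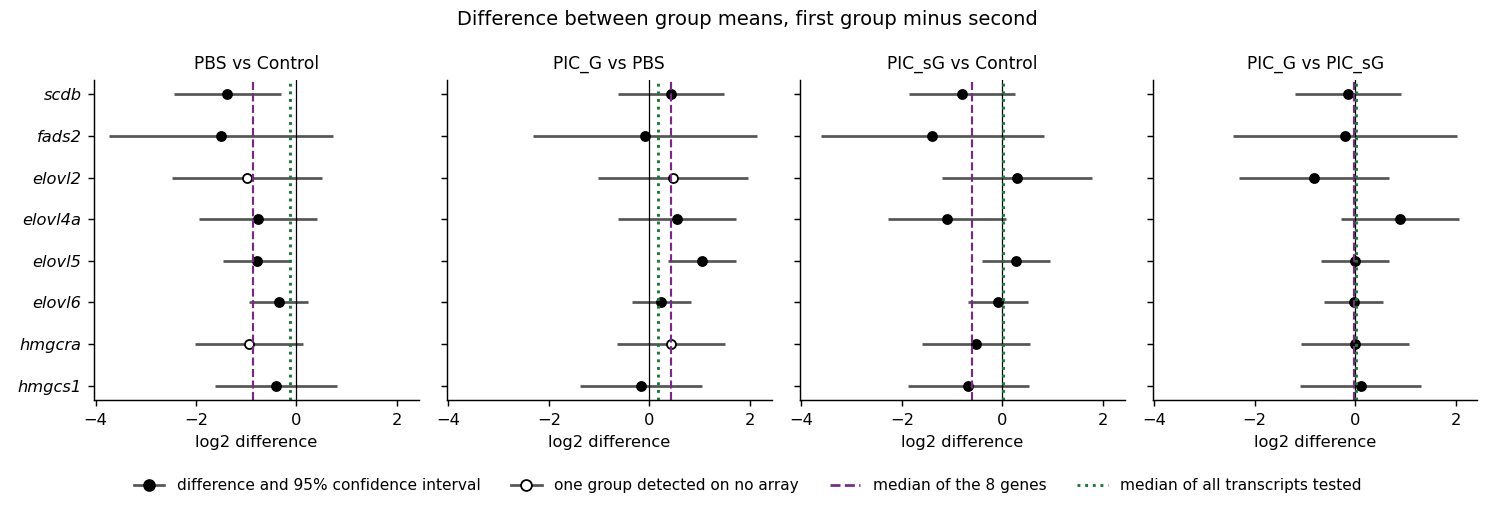
Log2 difference of group means (horizontal axes) with the 95% confidence interval for the 8 tested genes (rows) in 4 comparisons, each the first group minus the second, with dashed lines at the median of the 8 genes and dotted lines at the median of all 16128 transcripts. Hollow points mark genes detected on no array of one group, elovl2 and hmgcra in PBS. In PBS vs Control the medians are -0.87 and -0.13, and in PIC_G vs PIC_sG they nearly coincide at -0.02 and 0.02.

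Between PIC_G and PIC_sG the median over the 8 genes was -0.02, against 0.02 over all transcripts, and it came to -0.27 without PIC_sG replicate 2 and to 0.33 with quantile normalization. In all, 3 genes were higher in PIC_G (51.7% of all transcripts) and 5 lower, and no gene had groups that did not overlap (5.14% of all transcripts were higher and 4.04% lower without overlap). The sign varied by slide, with 3, 8 and 3 genes higher in PIC_G on slides 1, 2 and 3. Their medians there were -0.38, 0.40 and -0.24, and those of all transcripts had the same signs, at -0.03, 0.17 and -0.16. The widest confidence intervals, those of fads2 and elovl2, reached from -2.42 to 2.03 and from -2.31 to 0.68 on the log2 scale, so that the interval of fads2 holds 4-fold differences in either direction.

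Between PIC_G and PBS, 6 of 8 genes had a higher mean in PIC_G, as did 61.2% of all transcripts, with a median of 0.43 against 0.17, which came to 0.16 without PBS replicate 1 and 0.24 without PBS replicate 2. The higher means include those of elovl2 and hmgcra, undetected in PBS. With normexp 4 of 8 genes were higher in PIC_G, and the median was -0.06, against -0.20 over all transcripts. The 2 genes without overlap were elovl4a and elovl5, both higher in PIC_G, where 21.1% of all transcripts were so, and the share of the 8 genes was near that background. Between PIC_sG and Control, 6 of 8 genes had a lower mean in PIC_sG, as did 48.2% of all transcripts, with a median of -0.60 against 0.03, and measured scdb and elovl4a lay below Control without overlap (6.97% of all transcripts). That median came to -0.27 without the dim PIC_sG replicate 3, -0.30 without PIC_sG replicate 2, -0.17 without Control replicate 1 and -0.99 without the 2 arrays high in liver markers. With normexp it was -0.04, with 4 of 8 genes lower in PIC_sG, against 0.22 over all transcripts. For the dsRNA effect in the gradient against that without, where the second also holds the injection, all 8 genes had a positive contrast, as did 55.0% of all transcripts. The median was 0.86 against 0.10. It came to 0.50 without PIC_sG replicate 2 and 1.40 without the 2 arrays high in liver markers. The series table gave 0.59 with 6 of 8 positive. With normexp it was 0.12 with 5 of 8 positive, against -0.49 over all transcripts. This contrast is the difference of PIC_G from PIC_sG minus that of PBS from Control. The medians of these 2 differences were -0.02 and -0.87, so that it is not separate from the comparison of PBS with Control. No gene passed that test of the difference, where the smallest adjusted p was 0.339, for elovl4a. For elovl2 and hmgcra this contrast also rests on undetected PBS values.

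**Figure D5:**
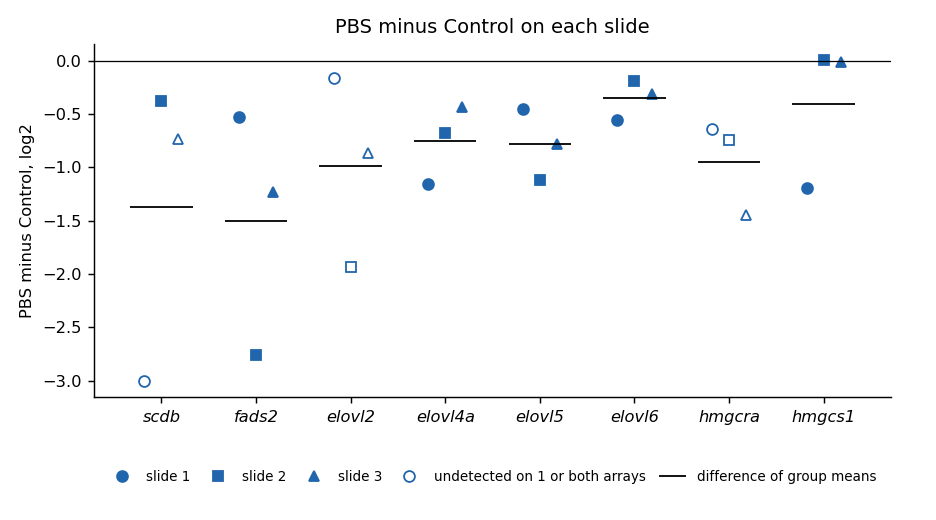
Log2 difference of PBS minus Control (vertical axis) for the 8 tested genes (horizontal axis) on each slide, with a line at the difference of the group means. Points are hollow where 1 or both arrays did not detect the gene, as in all 3 points of elovl2 and hmgcra. All filled points but that of hmgcs1 on slide 2 (0.005) lie below 0, and the largest of them is fads2 on slide 2 (-2.76).

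Markers of cell types differed between PBS and Control as well. Of the 6 microglia and leukocyte markers tested, 3 were called higher in PBS by limma, apoeb, coro1a and mpeg1.1, with a median log2 difference of 1.27. Their summed level ran from 11 to 14.1 on PBS arrays and from 4.55 to 5.61 on Control arrays. The 9 neuron markers had a median of -0.71, with elavl3 called lower in PBS, and summed levels of 2.96 to 4.48 in PBS and 4.52 to 7.75 in Control. The 6 radial glia markers had a median of -0.68, with slc1a2b called lower, and sums of 4.63 to 6.07 in PBS and 6.84 to 8.95 in Control. The 7 oligodendrocyte markers had a median of -0.70 with none called. Their sums overlapped, at 1.555 to 2.156 in PBS and 2.131 to 3.318 in Control. The median of the 8 lipid genes in this comparison was -0.87. Between PIC_G and PIC_sG the medians were 0.26 for neurons, 0.26 for radial glia and 0.32 for oligodendrocytes, beside -0.02 for the 8 lipid genes. Between PIC_G and PBS they were 0.22, 0.27 and 0.22 in the same order, beside 0.43 for the 8 lipid genes. Between PIC_sG and Control the medians were -0.63 for neurons, -0.79 for radial glia and -1.0 for oligodendrocytes with none called, beside -0.60 for the 8 lipid genes. The microglia and leukocyte markers had a median of 1.04 there, with coro1a and mpeg1.1 called higher in PIC_sG and summed levels of 8.37 to 11.3 in PIC_sG and 4.55 to 5.61 in Control. The 9 muscle markers had a median of 0.06 between PBS and Control with none called. Their sums were 38.2 to 96.2 in PBS, highest on replicate 1, and 41.0 to 61.3 in Control. For both dsRNA groups against the other 2 groups their median was -1.07, with actc1b and tpma called lower. The 4 pituitary markers had a median of 2.11 between PIC_G and PIC_sG with none called. Their sums were 0.28 to 0.73 in PIC_G and 0.08 to 0.37 in PIC_sG. Of 8 pituitary markers with a probe, PIC_G replicates 1 to 3 detected 7, 5 and 3, and each PIC_sG array detected 1. Most PIC_sG values of pituitary markers are thus at background, and the size of this difference is not known. The part of cell composition in the differences between the groups was not tested.

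The other genes of the same pathways lay on both sides of 0. Of 70 listed genes, 44 had a probe and 35 were tested, and 0 of 35 passed in any of the 7 comparisons. At an unadjusted p under 0.05, 6 of 35 differed between PBS and Control, 4 higher and 2 lower in PBS, where 22.5% of all transcripts passed. The median of the 35 between PBS and Control was 0.03, against -0.13 over all transcripts. Of the 35, 19 were higher and 16 lower in PBS, where 57.0% of all transcripts were lower. By role, the median was 0.13 over the 10 other enzymes of the elongation cycle, 0.09 over the 15 other enzymes of sterol synthesis, -0.16 over the 2 enzymes of fatty acid synthesis and -0.53 over the 8 genes of sterol sensing, transport and regulation.

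Of these other genes, those with the 2 smallest p values in each comparison were tecrb, elovl1a, sc5d, hsd17b7, cyp46a1.2 and elovl4b. tecrb, a reductase of the last step of fatty acid elongation, stood at -4.94, -4.33 and -5.51 in PIC_G, at -4.56, -5.30 and -4.68 in PIC_sG, at -3.89, -3.22 and -3.06 in PBS and at -5.48, -3.68 and -5.79 in Control. PBS had the highest mean, above Control by 1.59 (SE 0.54, limma adjusted p = 0.114), and PIC_G lay below PBS by -1.54 (SE 0.54, limma adjusted p = 0.214). elovl1a, an elongase of saturated very long chains, was 0.94 higher in PBS than in Control (SE 0.33, limma adjusted p = 0.123) without overlap. Both ran opposite to elovl4a, elovl5 and elovl6 in this comparison. Each was detected on all 3 PBS arrays but on only 2 Control arrays, so that the sizes rest in part on background. The elongases elovl1b and elovl7a, detected on all 12 arrays, were also higher in PBS. Their differences were 0.68 (SE 0.25, limma adjusted p = 0.137) and 0.63 (SE 0.26, limma adjusted p = 0.175). Of the 10 other enzymes of the elongation cycle, 8 were higher in PBS and 2 lower, where 57.0% of all transcripts were lower.

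sc5d, a sterol desaturase of the late cholesterol pathway, stood at -2.62, -2.24 and -2.58 in PIC_G, at -2.63, -3.28 and -4.39 in PIC_sG, at -2.58, -2.62 and -2.85 in PBS and at -1.75, -2.40 and -2.11 in Control. PIC_sG had the lowest mean, below Control by -1.35 (SE 0.40, limma adjusted p = 0.133) and below PIC_G, where PIC_G was 0.96 higher (SE 0.40, limma adjusted p = 0.987), in both cases without overlap. Of all transcripts, 6.97% were lower in PIC_sG than in Control without overlap. Between PIC_G and PIC_sG, 5.14% were higher in PIC_G without overlap. The lowest value was that of the dim PIC_sG replicate 3, where it was not detected, and without that array the differences came to -0.87 and 0.48. hsd17b7, a reductase of the same pathway, was 0.75 higher in PIC_G than in PIC_sG (SE 0.33, limma adjusted p = 0.987), also without overlap.

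cyp46a1.2, related to the mammalian enzyme that hydroxylates brain cholesterol for export, was the gene of the wider list with the smallest adjusted p for both dsRNA groups against the other 2 groups. It stood at -5.69, -5.21 and -6.57 in PIC_G, at -4.21, -5.38 and -5.14 in PIC_sG, at -6.62, -7.47 and -6.64 in PBS and at -6.49, -5.75 and -6.95 in Control. The measured difference was 1.29 (SE 0.33, limma adjusted p = 0.0859). cyp46a1.2 was detected on 3 PIC_G, 1 PIC_sG, no PBS and 1 Control arrays, so that it passed the filter through the dsRNA groups. Most values outside PIC_G are at background, and the size of the difference is not known. elovl4b, the paralog of elovl4a, was detected on all arrays and was 1.01 higher in the dsRNA groups (SE 0.34, limma adjusted p = 0.169), where elovl4a had a difference of -0.27 (SE 0.38, limma adjusted p = 0.768).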

How the data were processed

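Brain RNA was hybridized to 12 single-colour arrays, 3 for each of 4 groups taken from the labels, with pools of 3 fish. The authors deposited the output of Feature Extraction, whose headers give version 10.7.3.1, where the methods name another version, as linear intensities that the software had background-subtracted and detrended but not scaled between arrays. Its calls of outliers and of signal well above background were used as deposited. The authors also deposited tables for each sample, with the same signal intensity and a column headed log2 that was not used, and a series table of natural log values, which matched the background-subtracted scanner signal on that scale (tolerance 0.001), with the dsRNA columns exchanged.

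Outlier spots were left out, repeated features averaged, and the log2 signal shifted by the 75th percentile of the 5272 probes well above background on all arrays, since under 50% of features were detected on every array. Probes well above background on at least 3 arrays were kept (19134 of 43603) and joined by their median for each gene. Symbols came from RefSeq transcripts (16568 probes matched). Transcripts with 2 or more values per group were fitted in 1 model of the 4 groups (limma 3.58.1, R 4.3.3), two-sided, at an adjusted p under 0.05. The number of arrays limits the precision. The script was tested on simulated data. A gene undetected in 1 group was also compared at the mean over arrays of the detection limit, or its own signal where higher. This is no strict bound, since undetected signals can lie above the limit. Scipy 1.17.1 gave exact permutation tests.

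The genes, the wider pathway list and the marker lists were chosen with earlier results of these data known. Every gene of the group with a probe is described, and of the wider list, which had no calls, the 2 with the smallest unadjusted p in each comparison. elovl1b and elovl7a are given besides, for their direction between PBS and Control. Deviations from the group means correlated between same-numbered PBS and Control arrays in all 3 pairs (0.256 to 0.556). Between PBS and Control arrays of different number the correlation ran from -0.493 to 0.330, so that numbers pair these groups only in part. Between the other groups same-numbered pairs ran from -0.195 (PIC_G with PIC_sG) to 0.402 (PIC_G with PBS). For PIC_G with PIC_sG the highest value, 0.195, was of a pair of different number, against at most 0.170 for the same number. Alternatives covered scaling, background correction (normexp on median signals, since mean signals were not among the columns used), filters, weights, a slide block, the exchanged labels and each array left out. Leaving out the 2 arrays high in liver markers, setting undetected PBS values at the detection limit and the permutation test on 1 elovl5 probe were added after seeing the data.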

Additional observations from a re-analysis of the deposited data

Results flagged for a closer look

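elovl4a was set aside for a closer look because the 2 effects that can be compared across the arms of the design had opposite directions on every slide. PIC_G lay above PBS on all 3 slides (1.11, 0.37 and 0.19), while PIC_sG lay below Control on all 3 (-0.17, -0.52 and -2.60). The second of these differences also holds the injection. Seen the other way, PIC_G lay above PIC_sG on all 3 slides (0.12, 0.22 and 2.34), while PBS lay below Control (-1.15, -0.68 and -0.44). Both are the same contrast, of 1.65 log2 units (SE 0.76, limma adjusted p = 0.339, not past the threshold), and 0.93 without PIC_sG replicate 3, on which elovl4a was not detected. With the arrays of PIC_G and PIC_sG exchanged it was -0.14.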

How the results depend on the processing

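No gene of the group passed the test under the alternatives, except with array weights, where 1 of 8 (elovl5) passed between PBS and Control, between PIC_G and PBS and for any difference among the groups. Over all 16128 transcripts, 3242, 2163 and 4426 passed there in the same order. The elovl5 level there joins the dim probe that no PBS or Control array detected. With each array left out in turn, the count of these genes ranged from 0 to 0 in every comparison. With the replicate block, which follows the pairing by slide, it was 0 in every comparison, and the block changed no call of these genes. Over 1148 refits of single genes, the sign differed in 93, of which 46 were between PIC_G and PIC_sG, and the value moved by over 1 SD in 38. Of these 38, 12 were with normexp background correction, 11 with the values and labels of the series table and 6 with the dsRNA labels exchanged. Between PBS and Control the median over the 8 genes was -0.90 to -0.71 with 1 array left out and -0.87 to -0.08 otherwise, where -0.08 is normexp, with 6 of 8 genes lower and a median of 0.34 over all transcripts. Relative to the median of all transcripts it was -0.73, and -0.92 to -0.41 under the alternatives. The cause was not tested. Quantile normalization and the percentile over all probes moved the median of all transcripts between PBS and Control to -0.02 and 0.07. Counts over all transcripts were less stable. Between PBS and Control, 694 were called, 0 without PBS replicate 2, 1 without Control replicate 3 and 1409 without PIC_sG replicate 3, and 0 to 3242 under other alternatives. Between PIC_G and PBS the count of 71 ranged from 1 to 183 and from 0 to 2163, between PIC_sG and Control that of 223 from 73 to 258 and from 31 to 518, for both dsRNA groups that of 262 from 124 to 312 and from 27 to 1065, and for any difference that of 398 from 95 to 721 and from 26 to 4426. The dsRNA effect in the gradient against that without had 0 calls, and 0 to 2 and 0 to 982. Signal over background limits scdb, elovl2 and hmgcra, which were detected on 8, 5 and 7 of 12 arrays.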
